A study of Mus musculus with 4 samples.

Results

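CXC chemokines are small secreted proteins that draw leukocytes into tissue, and 10 genes of this family (Cxcl1, Cxcl2, Cxcl3, Cxcl5, Cxcl9, Cxcl10, Cxcl12, Cxcl13, Cxcl14 and Cxcl16) were followed in the mouse colon. They were taken by gene name from 4 one-color microarrays and were covered by 13 probes, out of 39423 probes and 22368 named genes. Each array was hybridized with colon RNA pooled within 1 group of male mice on a B6.129 background, backcrossed for 3 generations and 42 weeks old. The groups were Pla2g3+/+ (WT) and Pla2g3-/- (KO) mice, Pla2g3 being the gene of the secreted phospholipase A2 sPLA2-III, and each genotype was given either saline vehicle or azoxymethane (AOM), a carcinogen that produces colon tumors in rodents. The dose of AOM was 10 mg/kg in weekly injections over 6 weeks, and tissue was taken 28 weeks after the last injection. The deposited description gives 3 to 5 mice per pool and names the AOM tissue colorectal cancer, whereas the legend of the study gives 4 mice per genotype and the descending colon. With 1 array per group no difference below has a replicate check or a p-value.

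The family is divided by its receptors. Ligands with an ELR motif before the first cysteines (here Cxcl1, Cxcl2, Cxcl3 and Cxcl5) act on CXCR2 and recruit neutrophils, and in epithelium and myeloid cells they are classical targets of NF-kB downstream of IL-1 and TNF. Cxcl9 and Cxcl10 are induced by interferon and attract activated T cells and NK cells through CXCR3. Cxcl12 (receptors CXCR4 and ACKR3), Cxcl13 (CXCR5), Cxcl14 and Cxcl16 (CXCR6) are largely homeostatic ligands made by stromal, lymphoid or epithelial cells.

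Of the members, 7 lie on chromosome 5. Among members the ELR ligands are neighbors there, as are Cxcl9 and Cxcl10, whereas Cxcl13 lies apart. Ppbp and Pf4, CXC ligands outside the members, lie between Cxcl5 and Cxcl3. On mm9, the build of the array annotation, the probes of the ELR ligands follow each other on the plus strand at chr5:91190490-91190549 (Cxcl5), chr5:91216694-91216753 (Cxcl3), chr5:91321845-91321904 (Cxcl1) and chr5:91334534-91334593 (Cxcl2). The brighter probes of Cxcl9 (chr5:92752191-92752250) and Cxcl10 (chr5:92775781-92775840) lie on the minus strand, and that of Cxcl13 at chr5:96389861-96389920. The other members are on chromosomes 6 (Cxcl12), 13 (Cxcl14) and 11 (Cxcl16). Whether a probe lies in a coding exon or a UTR was not analysed here. No pair of the 13 probes (78 pairs) shared a run longer than 9 bases. Whether a probe also matches the transcript of a paralog elsewhere was not tested.

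The promoters below are shown because those of Cxcl1, Cxcl2, Cxcl3 and Cxcl9 had the letters of an NF-kB site in common. The site was searched on both strands as GGNNTTTCC from 250 bases before to 50 after the RefSeq start site. The bases before the start are given on GRCm38.p6, with the matches in capitals, for Cxcl1 (chr5:90891125-90891244, plus strand), Cxcl2 (chr5:90903779-90903898, plus strand), Cxcl3 (chr5:90785981-90786100, plus strand) and Cxcl9 (chr5:92328080-92328219, minus strand).
Cxcl1: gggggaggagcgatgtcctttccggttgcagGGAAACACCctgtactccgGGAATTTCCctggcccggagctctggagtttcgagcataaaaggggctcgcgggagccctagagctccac
Cxcl2: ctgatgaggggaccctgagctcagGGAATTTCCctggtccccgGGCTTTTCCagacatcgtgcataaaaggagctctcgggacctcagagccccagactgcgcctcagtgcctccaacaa
Cxcl3: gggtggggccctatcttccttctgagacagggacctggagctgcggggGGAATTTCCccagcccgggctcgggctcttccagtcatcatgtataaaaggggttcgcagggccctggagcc
Cxcl9: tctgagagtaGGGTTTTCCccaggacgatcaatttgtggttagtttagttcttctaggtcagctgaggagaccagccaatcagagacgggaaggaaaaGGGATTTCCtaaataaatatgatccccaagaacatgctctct
In the direction of the gene, matches began at -70 in Cxcl1, at -96 and -77 in Cxcl2, at -72 in Cxcl3, and at -130 and -42 in Cxcl9. Matches on the opposite strand began at -89 in Cxcl1 and at -158 in Cxcl10. The motif was thus present in 5 of the 8 member promoters that matched by symbol, and in 5.82% of all 32851 promoters. It was not found in this window of Cxcl12, Cxcl13 or Cxcl14, and Cxcl5 and Cxcl16 had no entry.

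For the interferon-induced ligands, the 220 bases before the start of Cxcl10 are shown (chr5:92348890-92349109, GRCm38.p6, minus strand). The capitals mark a match on the opposite strand to the interferon-stimulated response element, searched as TTCNNTTTC on both strands, at -213.
Cxcl10: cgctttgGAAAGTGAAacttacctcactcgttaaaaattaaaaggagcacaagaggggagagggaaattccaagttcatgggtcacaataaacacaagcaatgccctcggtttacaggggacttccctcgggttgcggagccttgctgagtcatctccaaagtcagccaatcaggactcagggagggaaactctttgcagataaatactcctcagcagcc
This motif was present in 8.56% of all promoters and in 3 member promoters, those of Cxcl9 (at -175), Cxcl10 and Cxcl14 (at -172). The interferon-gamma activated site, searched as TTCNNNGAA, was present in 8.3% of all promoters and in 1 member promoter, that of Cxcl14. None of these matches overlapped another. A match describes the letters of the window and not the binding of a factor.

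Signals are given relative to the 75th percentile of their array, so that 1 stands for that percentile, and are compared between arrays for 1 probe only. By the call of the scanner software, 64.8% to 69.4% of 43020 spots per array exceeded background well, and the lowest such relative signal was between 0.0125 and 0.0227. The error that the software assigns to a member's signal above background was 10.0% to 21.2%, which gave an error of 0.204 to 0.343 for a log2 ratio. The median SD of repeated spots was 0.0574 to 0.0657 on the log2 scale. Both errors describe a single array and not mice. Pla2g3, by its brightest probe, had 0.53 in WT and 0.653 in KO with vehicle, and 0.232 in WT and 1.39 in KO after AOM. Its other probes had 0.084, 0.088, 0.030 and 0.20, and 0.014, 0.038, 0.031 and 0.086 in WT vehicle, KO vehicle, WT AOM and KO AOM. Of these signals, only that of 0.014 was not well above background. None of its probes was thus lower on the arrays labeled Pla2g3-/-. Whether the probes lie in the deleted part was not tested, and every genotype direction below rests on the labels. As the tissue is bulk colon, fewer cells of a type and less RNA per cell cannot be told apart.

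The 10 members fell into distinct patterns. Of the 10, 8 were highest on the WT AOM array, and the other two (Cxcl12 and Cxcl13) were highest in KO with vehicle. Among members above background on all arrays, KO AOM was the lowest array for Cxcl9, Cxcl10 and Cxcl14, and for Cxcl12 by its brighter probe but not by the other. Well above background were 8 members in WT and 7 in KO with vehicle, and 10 in WT and 8 in KO after AOM, with 7 members above it on all 4 arrays.

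**Figure D1:**
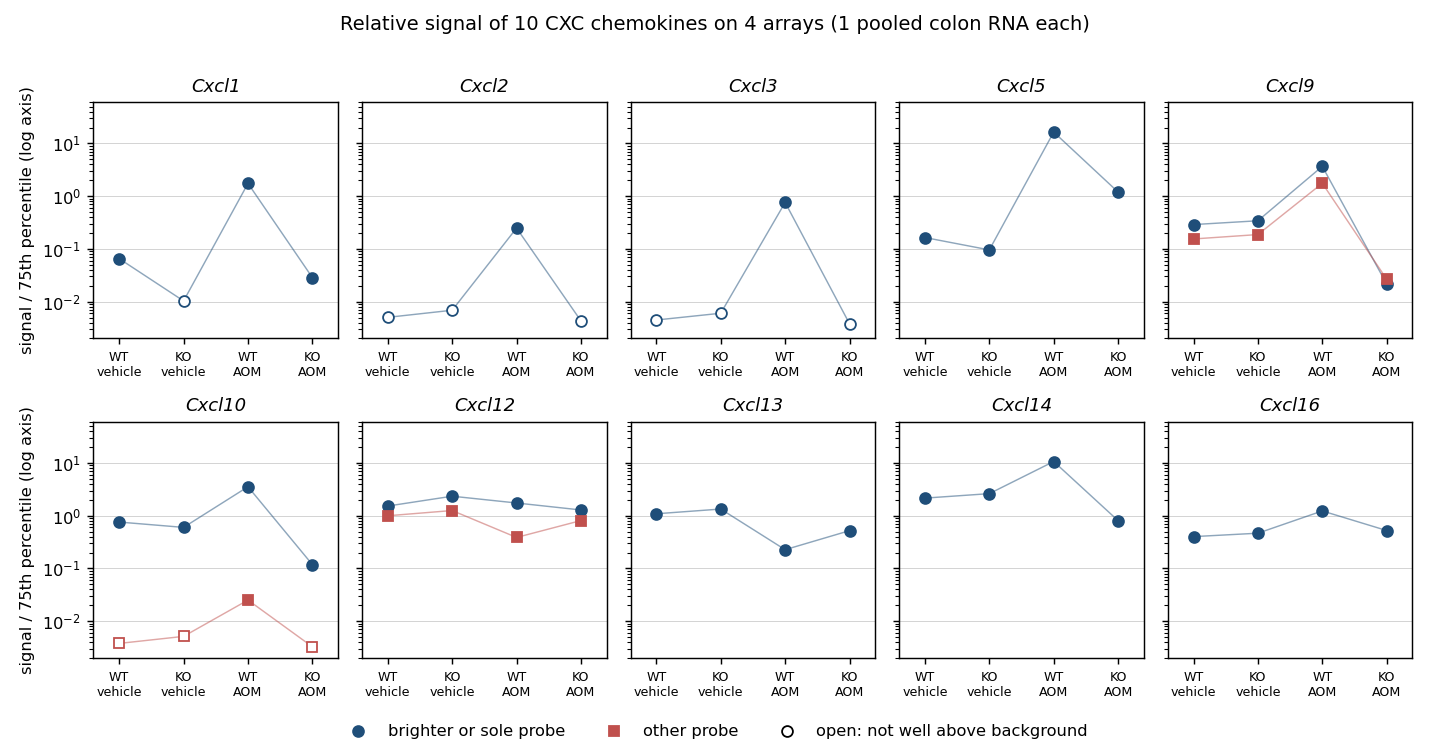
Relative signal (intensity over the 75th percentile of the array, log axis) of the 10 CXC chemokines on the 4 arrays, with 1 point per probe and array and open symbols for signals not well above background. WT AOM is the highest array for 8 of the 10 members, Cxcl13 is lowest there, and the probes of Cxcl12 run opposite ways after AOM.

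Among the ELR ligands, which attract neutrophils, all 4 were far higher in WT colon after AOM than in any other pool. Cxcl1, the keratinocyte-derived chemokine of the mouse, had relative signals of 0.0653 in WT and 0.0103 in KO with vehicle, and 1.74 in WT and 0.0286 in KO after AOM. The KO vehicle value was not well above background, and WT AOM stood apart from the other pools. Cxcl1 was thus 26.7-fold higher after AOM in WT and 61.0-fold lower in KO than in WT after AOM. With another background correction and quantile normalization between arrays, Cxcl1 had log2 ratios of 3.23 and -3.47. With vehicle it was at least 2.88-fold lower in KO, a difference that shrank to a log2 ratio of -0.38 in that setting.

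Cxcl2, the macrophage inflammatory protein that shares CXCR2 with Cxcl1, was above background in 1 pool only. Its relative signal was 0.248 in WT after AOM, against 0.00503, 0.00686 and 0.00431 in WT vehicle, KO vehicle and KO AOM, all of them not well above background. It was at least 15.0-fold higher after AOM in WT, and at least 17.0-fold lower in KO than in WT after AOM. These bounds depend on the processing. With another background correction and quantile normalization the log2 ratios were 1.09 and -1.06.

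Cxcl3, a further CXCR2 ligand from the same cluster, showed the same picture at a wider distance. Its relative signal was 0.759 in WT after AOM, and 0.00448, 0.00602 and 0.0038 in WT vehicle, KO vehicle and KO AOM were not well above background. The difference was at least 45.9-fold between treatments in WT and at least 52.0-fold between genotypes after AOM. With another background correction and quantile normalization the log2 ratios of Cxcl3 were 2.36 and -2.34. For Cxcl2 and Cxcl3 no ratio exists with vehicle or within KO, since both signals were below background.

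Cxcl5, an ELR ligand known mainly from epithelial cells, was the 1 member of this group above background in all pools, with 0.164 in WT and 0.0956 in KO with vehicle, and 16.4 in WT and 1.19 in KO after AOM. Both AOM pools stood above both vehicle pools. AOM over vehicle was 99.9-fold in WT, the largest among members above background in both pools, and 12.5-fold in KO. KO was 13.7-fold lower than WT after AOM and 1.72-fold lower with vehicle.

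The CXCR3 ligands, which are interferon-induced, differed in opposite directions between AOM and vehicle in the pools of the 2 genotypes. Cxcl9 by its brighter probe had 0.289 in WT and 0.341 in KO with vehicle, and 3.67 in WT and 0.0215 in KO after AOM. It was 12.7-fold higher after AOM in WT and 15.9-fold lower after AOM in KO, which left KO 171-fold lower than WT after AOM. This was the largest genotype difference among members measured in both pools, the ratios of Cxcl2 and Cxcl3 being bounds. The KO AOM signal of Cxcl9 was near the lowest signal well above background of that array, 0.0146. With another background correction and quantile normalization the log2 ratio of Cxcl9 was -4.79. Its other probe, at chr5:92752796-92752855, read 0.154, 0.187, 1.75 and 0.0266 in WT vehicle, KO vehicle, WT AOM and KO AOM, and gave 66.0-fold lower in KO after AOM. Both probes were above background in all pools and ordered them alike.

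Cxcl10 by its brighter probe had 0.757 in WT and 0.6 in KO with vehicle, and 3.54 in WT and 0.118 in KO after AOM. The highest pool was again WT AOM and the lowest KO AOM. AOM over vehicle was 4.67-fold higher in WT and 5.08-fold lower in KO, and KO was 29.9-fold lower than WT after AOM. The other probe, at chr5:92776616-92776675, was designed on a cDNA clone and was above background in WT AOM only, with 0.0251, where it gave a difference of at least 1.72-fold between genotypes. The starts of both probes (30 of 60 bases, 5′ to 3′, minus strand) show that they read different stretches.
Cxcl10 brighter probe: gctttgcattgtatatggaagaacttgtgt
Cxcl10 other probe: ttcctagtgtctagaagtggagcagttatt
With vehicle, both CXCR3 ligands were within 2-fold between genotypes, Cxcl9 1.18-fold higher and Cxcl10 1.26-fold lower in KO.

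Cxcl12, the stromal ligand of CXCR4, was the 1 member whose probes disagreed. The brighter probe, annotated to transcript variant 3 at chr6:117131227-117131286, had 1.52 in WT and 2.34 in KO with vehicle, and 1.74 in WT and 1.28 in KO after AOM. All of its ratios were within 2-fold, and KO was 1.36-fold lower than WT after AOM. The other probe, annotated to transcript variant 1 at chr6:117125026-117125085, had 0.996, 1.25, 0.387 and 0.808 in WT vehicle, KO vehicle, WT AOM and KO AOM. It was 2.58-fold lower after AOM in WT, and 2.09-fold higher in KO than in WT after AOM, which is the opposite direction. Their starts are shown (30 of 60 bases, plus strand) because the direction for Cxcl12 depends on which of them is read.
Cxcl12 brighter probe: aggagaaggcagcttcctatatgcagcgtg
Cxcl12 other probe: gctgtaaacctcctaccgtatgtgggaatt
No single direction is given here for Cxcl12 after AOM.

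Cxcl13, the B cell attractant of lymphoid follicles, was the 1 member past 2-fold lower after AOM in WT and past 2-fold higher in KO after AOM when genes were read by their brightest probe. Its relative signal was 1.09 in WT and 1.34 in KO with vehicle, and 0.227 in WT and 0.52 in KO after AOM. Both AOM pools were below both vehicle pools, and WT AOM was the lowest. Cxcl13 was 4.79-fold lower after AOM in WT and 2.57-fold lower in KO, and was 2.29-fold higher in KO than in WT after AOM. Without scaling between arrays the difference in KO was within 2-fold (log2 ratio -0.52). With another background correction and quantile normalization, the difference between genotypes after AOM was within 2-fold (0.79).

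Cxcl14, a chemokine made constitutively by epithelial cells, had 2.15 in WT and 2.62 in KO with vehicle, and 10.6 in WT and 0.804 in KO after AOM. As for the CXCR3 ligands, WT AOM was the highest pool and KO AOM the lowest. It was 4.94-fold higher after AOM in WT, 3.26-fold lower after AOM in KO (within 2-fold without scaling, log2 ratio -0.86) and 13.2-fold lower in KO than in WT after AOM. Cxcl16, a membrane-bound ligand shed by ADAM10, had 0.401, 0.465, 1.23 and 0.523 in WT vehicle, KO vehicle, WT AOM and KO AOM, so that WT AOM alone stood out. It was 3.07-fold higher after AOM in WT, 1.12-fold higher after AOM in KO and 2.35-fold lower in KO than in WT after AOM.

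The first comparison of the design is that of the KO and WT pools without carcinogen. With vehicle, 1 of 8 members with a value was past 2-fold, Cxcl1, lower in KO. Over 16395 genes the share past 2-fold was 3.24%, with 1.92% higher and 1.32% lower. The members' median log2 ratio was 0.23, against -0.02 over all genes. The other 7 were within 2-fold, from 1.72-fold lower (Cxcl5) to 1.54-fold higher (Cxcl12) in KO.

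The second comparison is that of the KO and WT pools of AOM-treated colon. After AOM, 28.0% of 17194 genes were past 2-fold. Among the members, 8 of 10 were past 2-fold lower in KO, where 12.9% of genes were, and 1 member (Cxcl13) was past 2-fold higher, where 15.1% of genes were. The median log2 ratio of the members was -3.93, against 0.03 over all genes. In order of size the differences ran from Cxcl9 (log2 ratio -7.42) and Cxcl1 (-5.93) over Cxcl10 (-4.90), Cxcl5 (-3.78) and Cxcl14 (-3.73) to Cxcl16 (-1.23) and Cxcl12 (-0.44), with bounds of -5.70 for Cxcl3 and -4.09 for Cxcl2. The order depends on the processing. With another background correction and quantile normalization, Cxcl9 had -4.79, Cxcl1 -3.47, Cxcl3 -2.34 and Cxcl2 -1.06. Cxcl5 and Cxcl14 were closer to each other than the error of their arrays.

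**Figure D2:**
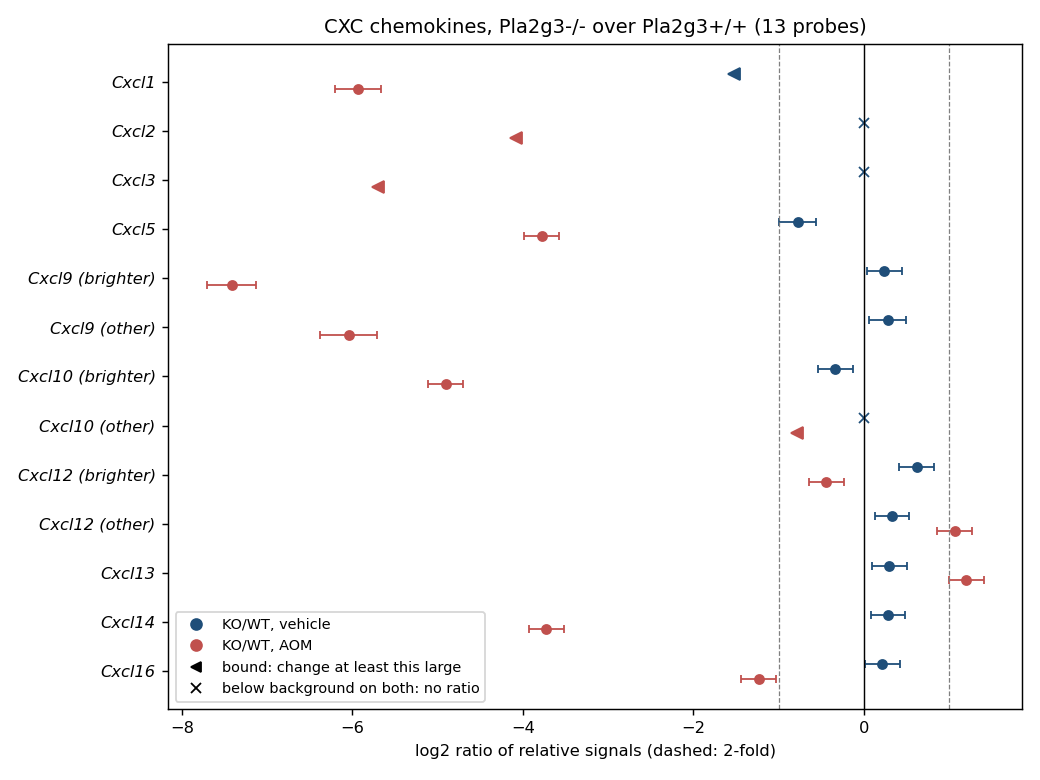
Log2 ratio of KO over WT for the 13 probes of the 10 CXC chemokines, with vehicle (blue) and after AOM (red); bars are the error the scanner software assigns, triangles are bounds, and crosses mark pairs of signals below background. After AOM the ratios reach down to -7.42 for Cxcl9, while with vehicle the lowest is the bound of -1.53 for Cxcl1.

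Treatment was compared within each genotype on the same 4 arrays, so that the WT AOM array enters both the genotype difference after AOM and the treatment difference in WT. In WT, 37.5% of 17277 genes were past 2-fold. Of the 10 members 8 were past 2-fold higher after AOM, where 15.1% of genes were, and 1 (Cxcl13) was past 2-fold lower, where 22.4% were. The median log2 ratio of the members was 2.99, against -0.17 over all genes. In KO, 24.7% of 16517 genes were past 2-fold. Of 8 members with a value, 1 (Cxcl5) was past 2-fold higher, where 9.67% of genes were, and 4 (Cxcl9, Cxcl10, Cxcl13 and Cxcl14) were past 2-fold lower, where 15.0% were. The median log2 ratio was -1.11, against -0.08 over all genes. Without scaling between arrays the median of all genes moved to 0.87 in WT and 0.76 in KO, so AOM over vehicle is read relative to the other genes of the array.

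**Figure D3:**
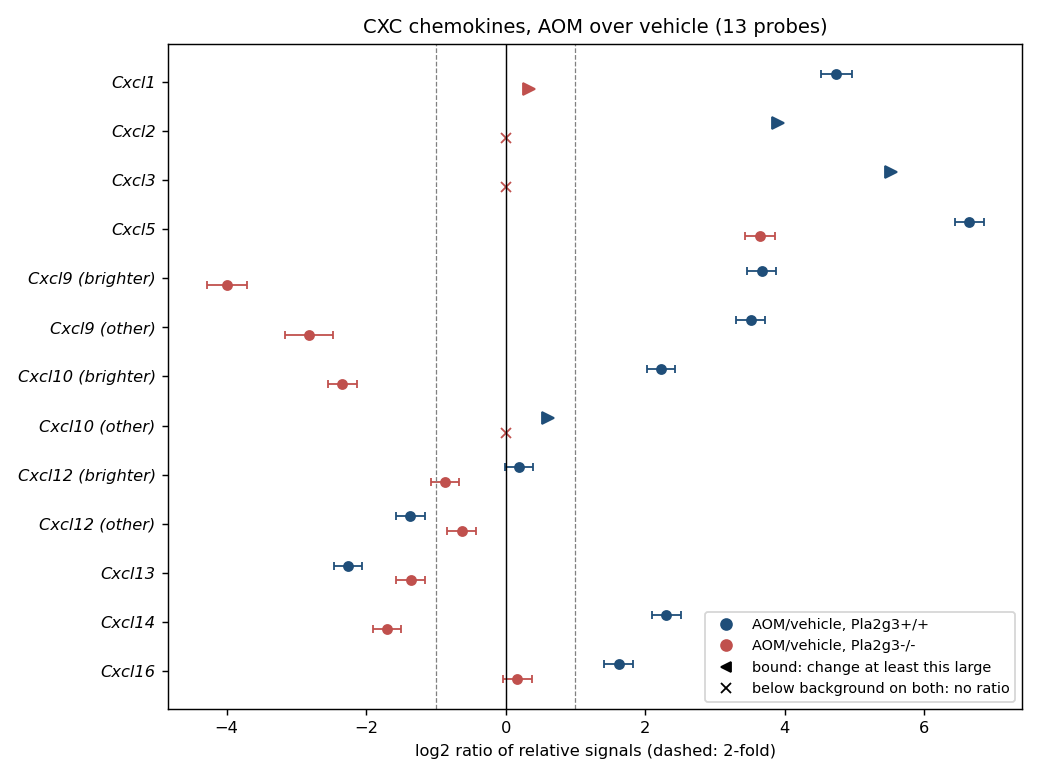
Log2 ratio of AOM over vehicle for the 13 probes, in WT (blue) and KO (red), drawn as in the plot of KO over WT. Cxcl5 is higher after AOM in both genotypes (6.64 and 3.64), whereas Cxcl9, Cxcl10 and Cxcl14 lie above 0 in WT and below it in KO.

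The receptors of these ligands were read on the same arrays. Counts of this and later lists stand beside the shares of all genes past 2-fold. For KO over WT, 1.32% were lower and 1.92% higher with vehicle, and 12.9% and 15.1% after AOM. For AOM over vehicle, 22.4% were lower and 15.1% higher in WT, and 15.0% and 9.67% in KO. After AOM, 6 of 8 receptors were past 2-fold lower in KO and none was past 2-fold higher, with a median log2 ratio of -1.29. The count of 6 became 3 among probes above background on both arrays, and 2 with normexp background correction and quantile normalization. With vehicle, none of the 6 receptors with a value was past 2-fold. Cxcr2, the receptor of the ELR ligands on neutrophils, had 0.0223 in WT vehicle and 0.137 in WT AOM and was not well above background in either KO pool, which made it at least 9.39-fold lower in KO after AOM. Cxcr1 was above background in WT AOM only (0.0377).

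Cxcr3, the receptor of Cxcl9 and Cxcl10 on activated T cells, was within 2-fold between treatments in WT, with 0.165 in WT and 0.191 in KO with vehicle, and 0.183 in WT and 0.0792 in KO after AOM. It was 2.31-fold lower in KO than in WT after AOM. Cxcr4, the receptor of Cxcl12, had 0.0714, 0.0794, 0.343 and 0.0435 in WT vehicle, KO vehicle, WT AOM and KO AOM, and was 7.89-fold lower in KO after AOM. Ackr3, which scavenges Cxcl12, had 0.612, 0.577, 2.02 and 0.97 in the same order and was 2.09-fold lower.

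Cxcr5, the receptor of Cxcl13 on B cells, had 0.119 in WT and 0.115 in KO with vehicle, 0.0379 in WT after AOM, and was not well above background in KO after AOM. It was 3.13-fold lower after AOM in WT and at least 7.88-fold lower in KO. Cxcr5 and Cxcl13 were thus both lower after AOM in each genotype, but opposite between genotypes after AOM, where Cxcr5 was at least 2.60-fold lower in KO. Cxcr6, the receptor of Cxcl16, had 0.434, 0.438, 0.381 and 0.234, and Ackr1, an endothelial scavenger of CXC ligands, 0.151, 0.133, 0.139 and 0.212, and both were within 2-fold in all comparisons.

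**Figure D4:**
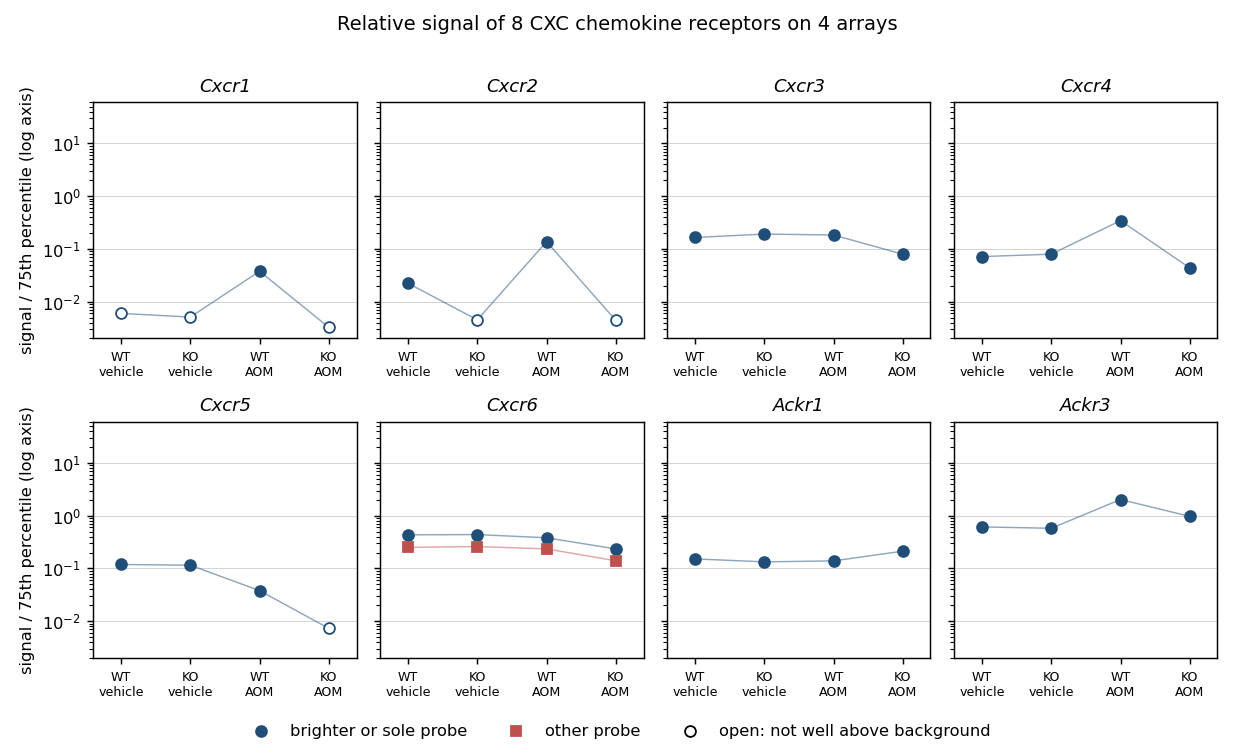
Relative signal (log axis) of 8 receptors of CXC chemokines on the 4 arrays, with 1 point per probe and array and open symbols for signals not well above background. Cxcr2, Cxcr4 and Ackr3 are highest in WT AOM, whereas Cxcr5 is lower in both AOM pools than with vehicle.

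The CXC ligands outside the 10 members gave no common direction. Ppbp, a platelet ligand of CXCR2, was above background in the AOM pools only, with 0.815 in WT and 0.0271 in KO, and was 30.02-fold lower in KO. Cxcl17, a mucosal chemokine, ran the other way, with 0.0216, 0.0531, 0.0203 and 0.473 in WT vehicle, KO vehicle, WT AOM and KO AOM, and was 23.2-fold higher in KO after AOM. Pf4, a platelet ligand of CXCR3, had 4.11, 6.42, 8.21 and 5.02 and stayed within 2-fold in all comparisons. Cxcl15 was above background in KO AOM only (0.0235). Cxcl11, the CXCR3 ligand that accompanies Cxcl9 and Cxcl10, had 217, 216, 132 and 160 by its brighter probe and 2.99, 3.18, 3.37 and 3.81 by the other, all within 2-fold. Its probes lie close together (chr5:92788567-92788626 and chr5:92788640-92788699) but differ widely in level. Whether the brighter probe reads Cxcl11 alone was not tested.

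The cytokines known to induce these ligands were listed beside them. After AOM, 10 of 11 with a value were past 2-fold lower in KO, where 12.9% of all genes were, and none was higher. The median log2 ratio was -2.92. Il1b, the leukocyte interleukin upstream of the ELR ligands, had 0.101, 0.0964, 5.66 and 0.0788 in WT vehicle, KO vehicle, WT AOM and KO AOM, and was 55.8-fold higher after AOM in WT and 71.8-fold lower in KO than in WT after AOM. Its profile set WT AOM apart, as that of Cxcl1 did. Tnf had 0.162, 0.121, 0.826 and 0.0479 and was 17.2-fold lower in KO after AOM.

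Il6, Il1a, Csf2 and Osm were above background in WT AOM only and were at least 18.5-fold, 6.19-fold, 9.84-fold and 8.89-fold lower in KO after AOM. Ifng, the main inducer of Cxcl9 and Cxcl10, had 0.0578 in WT and 0.033 in KO with vehicle and 0.0661 in WT after AOM, and was not well above background in KO after AOM, where it was at least 4.53-fold lower. In WT it differed by 1.14-fold between treatments, whereas Cxcl9 differed by 12.7-fold. Ltb, a lymphotoxin needed for follicles and upstream of Cxcl13, had 0.971, 0.807, 0.651 and 0.0858, and was 7.59-fold lower in KO after AOM, where Cxcl13 was higher.

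Other targets of the same signals were read for comparison, beside 12.9% of all genes past 2-fold lower in KO after AOM. Of 11 feedback targets of NF-kB, 3 were past 2-fold lower in KO after AOM and none was higher (median log2 ratio -0.37), and Nfkbia, the NF-kB inhibitor, was 1.30-fold lower. Of 11 targets of interferon-gamma, 5 were past 2-fold lower and none was higher (median -0.97). Psmb8, a subunit of the immunoproteasome, was 2.23-fold lower, and Irf1, a transcription factor, 1.47-fold higher. Of 6 genes that process chemokines, 3 were past 2-fold lower in KO after AOM and 1 was higher. Mmp9, a neutrophil gelatinase, was at least 80.4-fold lower, Adam10 1.54-fold lower, and Dpp4, the peptidase that inactivates Cxcl10 and Cxcl12, 3.18-fold higher.

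**Figure D5:**
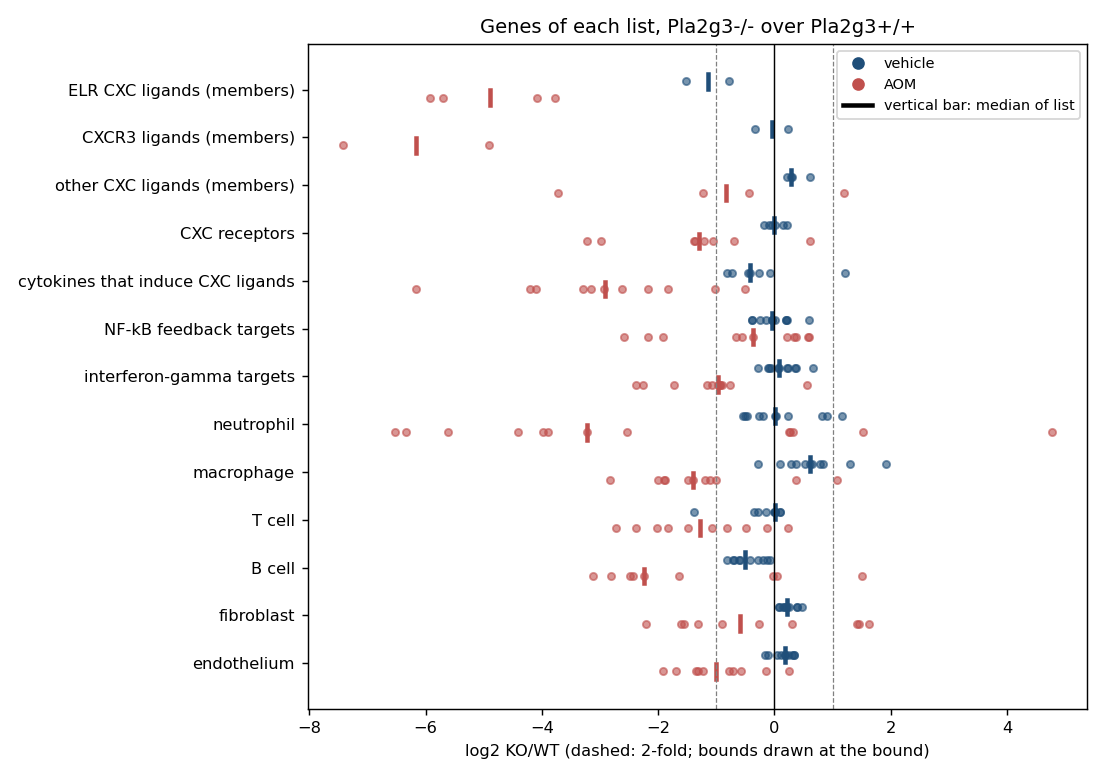
Log2 ratio of KO over WT for each gene with a value of the member groups and of other lists, with vehicle (blue) and after AOM (red), bounds being drawn at the bound; the vertical bars are medians. After AOM the medians were -4.89 for the ELR ligands, -6.16 for the CXCR3 ligands and -2.92 for the inducing cytokines, against -0.37 for NF-kB feedback targets.

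Markers of the cells that make or follow CXC ligands differed between the same pools, and their part in the chemokine results was not tested. The list for neutrophils, the followers of the ELR ligands, includes Cxcr2 and had 11, 10, 13 and 11 of its 14 markers above background in WT vehicle, KO vehicle, WT AOM and KO AOM. In this list, 8 of 13 markers with a value were past 2-fold lower in KO after AOM and 2 were higher. The summed relative signal of that list was 56.5 in WT and 55.5 in KO with vehicle, and 106 in WT and 74.0 in KO after AOM. S100a9, an abundant granulocyte protein, had 0.223, 0.154, 35.7 and 0.386 in WT vehicle, KO vehicle, WT AOM and KO AOM. Csf3r, the brightest marker and the largest part of each of these sums, had 49.3, 49.8, 44.3 and 53.7.

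For macrophages, a source of Cxcl2 and Cxcl9, 11 of 12 markers were above background in each pool, and 9 of 11 were past 2-fold lower in KO after AOM and 1 was higher, with sums of 31.5, 31.8, 33.2 and 24.3 in the same order. After AOM in WT, 9 of 11 were past 2-fold higher and 1 was lower (median log2 ratio 1.30), the brightest marker, Itgam, having 18.7, 15.3, 5.94 and 12.6. For T cells, which carry Cxcr3, 9 or 10 of 10 markers were above background in each pool. Of these 10, 6 were past 2-fold lower and none was higher in KO after AOM, with sums of 6.9, 6.47, 4.87 and 2.29. After AOM in WT, where Cxcl9 and Cxcl10 were higher, 2 of the 10 T cell markers were past 2-fold lower and the other 8 were within 2-fold. The share of all genes past 2-fold lower there was 22.4%.

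For B cells, the followers of Cxcl13, 6 of 10 markers were past 2-fold lower after AOM in WT and 6 of 9 in KO, with sums of 3.65, 2.77, 1.44 and 0.529 and with 10, 8, 8 and 6 of the 10 above background. Ms4a1, the CD20 antigen, had 0.627, 0.418 and 0.133 in WT vehicle, KO vehicle and WT AOM and was not well above background in KO AOM. Between genotypes after AOM, 6 of 9 B cell markers were past 2-fold lower and 1 was higher, and Cxcl13 was higher. Of the follicular stroma list, whose cells make Cxcl13, 3 of 5 with a value were past 2-fold lower in KO after AOM and none was higher, with sums of 8.23, 8.29, 101 and 4.11. Most of that sum was Clu, a gene also expressed outside follicles, with 7.45, 7.46, 99.7 and 3.63, whereas Ccl19, a chemokine of lymphoid stroma, was 2.09-fold lower after AOM in WT.

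Fibroblasts are a known source of Cxcl12, and 4 of their 10 markers were past 2-fold lower and 3 higher in KO after AOM, with sums of 42.1, 47.7, 119 and 91.3. Of 10 endothelial markers 5 were past 2-fold lower and none was higher, with sums of 8.08, 8.73, 11.2 and 6.61.

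The tissue makeup of the pools differed as well, and its part in the chemokine results was not tested. All 12 colonocyte markers were above background on all arrays, with sums of 988 in WT and 1030 in KO with vehicle and 333 in WT and 776 in KO after AOM. Of these 12 markers of the epithelium, a known source of Cxcl5 and Cxcl14, 8 were past 2-fold lower after AOM in WT (median log2 ratio -2.18) and 7 were past 2-fold higher in KO than in WT after AOM (median 1.71). The 10 smooth muscle markers were past 2-fold lower after AOM in WT (median log2 ratio -4.34), with sums of 667 and 704 with vehicle, 42.4 in WT AOM and 648 in KO AOM. All 12 Wnt targets of colon tumors were past 2-fold higher after AOM in WT (median 3.06), while in KO 2 of 11 were past 2-fold higher and 3 lower (median -0.02). With vehicle, 10 of 12 pancreatic acinar markers were past 2-fold higher in KO, with sums of 32.2 in WT and 70.9 in KO. Most of the WT sum came from Cela1 (16.49 in WT and 13.11 in KO) and Clps (15.29 and 10.15), both within 2-fold.

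The genes whose values over the 4 arrays were nearest to each member were found among 14788 genes above background on all arrays, by the Euclidean distance of log2 values centered on their mean. For Cxcl16 they were Noct, Cebpb and Gpr153 (0.05 to 0.08). For Cxcl12 by its brighter probe they were Racgap1, Fads3 and Cdc20 (0.03 to 0.14), and for Cxcl13 they were Gm4285, Tceal6 and Chrnb4 (0.11 to 0.13). Cxcl14 lay nearest to H2-Q5, Mfsd2a and Bcl2a1c (0.25 to 0.30).

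The members with the widest ranges had more distant neighbors. Those of Cxcl9 were Msln, Rhox5 and Saa3 (0.49 to 0.97), those of Cxcl10 Pycr1, Basp1 and Rec8 (0.65 to 0.71), and those of Cxcl5 Stra6, Aldh1a3 and Slc4a11 (1.18 to 1.55). No member was among the 3 nearest genes of another. With 4 arrays such likeness is a description only.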

How the data were processed

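Colon RNA pooled within each of 4 groups (27.7 ng) was labeled with Cy3 and hybridized to 4 Whole Mouse Genome arrays on 1 slide, with groups read from the sample labels. The authors deposited the spot intensity from Agilent Feature Extraction 11.5.1.1, which per the file headers is background-subtracted and detrended, with a surrogate for low signals and no scaling between arrays. The software's deposited p-value for equality with background was not used itself, whereas its flag for signals well above background decided detection. The authors also deposited a processed table, whose values are each intensity as a ratio to the 75th percentile of the array, and it served as an alternative. Control and outlier spots were left out, repeated spots averaged and the log2 of the 75th percentile subtracted, which gave 39423 probes, 31367 of them named through RefSeq (GRCm38.p6). Intensities at the 75th percentile were 647 (WT) and 652 (KO) with vehicle and 1312 and 1171 after AOM, and no spot was saturated.

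Genes were read by the probe with the brightest mean, and every member probe was reported. A fold change is the difference of log2 values between 2 arrays, with 2-fold, the study's threshold, as the call. Where 1 of both signals was not well above background, the fold is a bound against the higher of that signal and the lowest signal well above background of its array. Precision is limited by the number of arrays, 1 per group, and no test was run. Named genes were the members, all CXC receptors and further CXC ligands listed, the inducing cytokines, up to 4 of the brightest genes of each other list and the 3 genes nearest in pattern. Members and lists were chosen with earlier results of these data known. The lists were not complete on the arrays, where Trac, Fdcsp and Ccl21a were not matched.

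The 13 alternatives covered scaling, background correction (normexp with an offset of 50 in limma 3.58.1 and R 4.3.3), dim signals, the probe per gene, the threshold and the deposited table. The setting called normexp also included quantile normalization between arrays, so it changed both steps at once. The comparison script was tested on simulated data. Python 3.11.15, pandas 2.3.3, numpy 2.4.6 and matplotlib 3.10.9 were used.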

Additional observations from a re-analysis of the deposited data

Results flagged for a closer look

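Cxcl9, Cxcl10 and Cxcl14 went opposite ways with AOM in the arrays of the 2 genotypes, each past 2-fold in both, and with 1 array per group the difference was not tested. The log2 ratio of AOM over vehicle was 3.67 in WT and -3.99 in KO for Cxcl9. It was 2.22 in WT and -2.34 in KO for Cxcl10, and 2.30 in WT and -1.70 in KO for Cxcl14. For Cxcl14 the KO value was -0.86 without scaling between arrays.

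Among the inducing cytokines, Tnf showed the same opposition, with 2.35 in WT and -1.34 in KO. Il17a, a T cell cytokine that acts with TNF on ELR ligands, was above background in KO vehicle and WT AOM only. Its bounds were 1.65 in WT and -1.40 in KO for AOM over vehicle, and 1.22 with vehicle and -1.83 after AOM for KO over WT. These differences were not tested either.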

How the results depend on the processing

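No ratio that was past 2-fold in the main setting changed sign under any of the 13 alternatives. Of the members' ratios under single alternatives, 439 kept their side of the threshold, 9 came to be past it and 12 no longer were. The threshold was 2-fold, except in the settings at 1.5-fold and 4-fold, where the ratio itself did not change. These counts do not follow the sign, which changed for Cxcl12 and Cxcl10 as given below. Over the 12 settings at 2-fold, members lower in KO after AOM numbered 6 to 8 and members higher after AOM in WT 6 to 9. Cxcl12 after AOM had no stable sign, from -0.60 without scaling to 1.06 by its other probe between genotypes, and from -1.37 by that probe to 1.21 without scaling in WT. Cxcl10 with vehicle, within 2-fold, changed sign to 0.05 with the mean over probes. In KO, the median log2 ratio of AOM over vehicle over the members lay between -1.36 with probes above background on both arrays and -0.27 without scaling.

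Where counts moved by over 1.5 times, those of members were as follows. KO over WT with vehicle gave 1 higher and 2 lower at 1.5-fold, and 0 lower at 4-fold, with normexp and with probes above background on both arrays. KO over WT after AOM gave 0 higher at 4-fold and with normexp, and 2 by the dimmest probe. AOM over vehicle gave 2 lower in WT by the dimmest probe. In KO it gave 3 higher and 2 lower without scaling, 2 higher with signals as they stand, and 2 lower at 4-fold.

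For receptors, KO over WT gave 1 lower with vehicle with signals as they stand. After AOM it gave 1 higher at 1.5-fold, and 2 lower at 4-fold, 2 with normexp and 3 among probes above background on both arrays. AOM over vehicle in WT gave 2 higher and 0 lower at 4-fold, 2 higher and 0 lower with normexp, and 0 lower without scaling. In KO it gave 2 higher and 4 lower at 1.5-fold, 1 lower at 4-fold, 2 higher and 1 lower without scaling, 0 lower with normexp and 1 lower among probes above background on both arrays.

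Over all genes the counts higher and lower were, for KO over WT with vehicle, 661 and 575 at 1.5-fold, 121 and 60 at 4-fold, 71 and 47 with normexp, 159 and 106 among probes above background on both arrays, and 671 and 710 with signals as they stand. After AOM they were 4230 and 3692 at 1.5-fold, 973 and 855 at 4-fold, and 1350 and 1137 with normexp. For AOM over vehicle in WT they were 4224 and 6105 at 1.5-fold, 860 and 1249 at 4-fold, 1624 and 1515 with normexp, and 7751 and 1231 without scaling. In KO they were 3417 and 4699 at 1.5-fold, 233 and 507 at 4-fold, 802 and 767 with normexp, and 6396 and 625 without scaling. Thresholds change a count by construction, and the cause of the other changes was not tested.

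No paired analysis was possible because each group has 1 array. Leaving out a replicate could not be done for the same reason. Signals near background set a limit, since 3 members (Cxcl1, Cxcl2 and Cxcl3) were not well above background in at least 1 pool and their folds there are bounds. In KO AOM, Cxcl1 (0.0286) and Cxcl9 (0.0215) were well above background but near the lowest such signal of that array (0.0146). Every comparison of AOM in WT rests on 1 array.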
